A study of Rattus norvegicus with 9 samples.

Results

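EGR1, EGR2 and EGR3 and the orphan nuclear receptors NR4A1, NR4A2 and NR4A3 are transcription factors encoded by immediate early genes. Their 6 genes (Egr1, Egr2, Egr3, Nr4a1, Nr4a2 and Nr4a3) were matched by symbol among the 22589 genes listed for the tibia of each rat, and all 6 were among the 14520 genes with enough counts to be tested. The genes were selected on their counts in these same 9 rats, with earlier results in view, so their own group differences are given below as a description, with no test. RNA-seq was done on the left tibias of female Sprague-Dawley rats, 9 weeks old at purchase, in groups of 3. The RE/Ovx rats had both ovaries removed and later climbed a ladder with weights, first in 2 weeks of adaptive training and then for 12 weeks on 5 days per week, with a load that was raised up to the body weight. The NE/Ovx rats had the same ovariectomy and no exercise. The Sham rats kept their ovaries and lost only a piece of fat near the ovary. Blood was drawn under isoflurane, and the tibias were collected after the rats had been killed, about 24 weeks after the operation. No source used here gives the time between the last climb and collection. Skin, muscle, ligaments and tendons had been taken off the bones, and the total RNA was depleted of ribosomal RNA.

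Immediate early genes are transcribed within minutes of a stimulus, without new protein synthesis, and their mRNAs are short-lived. Growth factors, calcium, cAMP and mechanical load reach them mainly through the kinase ERK, which acts on serum response factor (SRF) and its partner Elk-1 at CArG boxes, and through CREB at cAMP response elements (CRE). EGR proteins bind GC-rich sites through zinc fingers and are held back by the corepressors NAB1 and NAB2. NR4A receptors act without a known natural ligand at NBRE sites, and NR4A1 and NR4A2 can pair with the retinoid X receptors. In bone, Egr1 and the NR4A genes are known as early targets of parathyroid hormone and of loading in osteoblasts, and Nr4a1 and Nr4a3 are known as genes that exercise induces in skeletal muscle.

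The start regions of 4 of the 6 genes are shown because motifs of the known input pathways lie in them. Each window is the RefSeq sequence of the assembly GRCr8 from 250 bases before to 50 bases after the annotated start, read 5′ to 3′ on the strand of the gene. Capitals mark CArG boxes, the short CRE form CGTCA and the EGR sites GCGGGGGCG and GCGTGGGCG, on either strand.
Egr1, chr18:26736828-26737127, plus strand: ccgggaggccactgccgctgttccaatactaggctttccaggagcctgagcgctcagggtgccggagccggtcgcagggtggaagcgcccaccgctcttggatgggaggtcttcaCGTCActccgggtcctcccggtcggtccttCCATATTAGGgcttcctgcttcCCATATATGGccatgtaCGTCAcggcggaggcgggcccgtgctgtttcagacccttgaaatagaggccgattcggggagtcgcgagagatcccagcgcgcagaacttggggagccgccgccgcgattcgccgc
Egr2, chr20:21054392-21054691, minus strand: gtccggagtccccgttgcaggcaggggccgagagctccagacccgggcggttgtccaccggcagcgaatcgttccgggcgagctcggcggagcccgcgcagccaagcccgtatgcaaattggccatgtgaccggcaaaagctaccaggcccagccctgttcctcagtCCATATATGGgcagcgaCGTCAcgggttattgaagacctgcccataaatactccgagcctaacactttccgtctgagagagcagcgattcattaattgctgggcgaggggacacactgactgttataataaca
Nr4a1, chr7:134259888-134260187, plus strand: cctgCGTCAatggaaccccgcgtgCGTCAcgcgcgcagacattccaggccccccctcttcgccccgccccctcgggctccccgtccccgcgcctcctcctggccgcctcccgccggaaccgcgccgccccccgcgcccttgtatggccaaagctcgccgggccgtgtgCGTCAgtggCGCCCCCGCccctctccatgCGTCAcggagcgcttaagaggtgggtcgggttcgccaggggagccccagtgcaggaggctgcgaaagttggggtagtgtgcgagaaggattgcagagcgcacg
Nr4a2, chr3:62104838-62105137, minus strand: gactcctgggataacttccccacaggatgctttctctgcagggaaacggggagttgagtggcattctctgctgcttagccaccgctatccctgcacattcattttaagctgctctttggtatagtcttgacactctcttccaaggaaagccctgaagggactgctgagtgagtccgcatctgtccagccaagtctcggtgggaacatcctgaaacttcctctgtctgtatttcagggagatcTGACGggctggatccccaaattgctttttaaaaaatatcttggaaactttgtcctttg

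Egr1 and Egr2 shared an arrangement in these windows. In both, a CArG box began 83 bases and a short CRE 66 bases before the start, and Egr1 held 1 more CArG box at 105 bases and 1 more short CRE at 135 bases. The windows of Nr4a1 and Nr4a2 held no CArG box. Nr4a1 had 4 short CRE matches, 246, 226, 82 and 53 bases before the start, and an EGR site on the opposite strand at 73 bases, while Nr4a2 had 1 short CRE on the opposite strand at 8 bases. Both strands of all 33469 windows in the table were searched in the same way. A CArG box was in 1.64% of them, the short CRE in 21.2% and an EGR site in 3.2%. The full CRE TGACGTCA, which contains the short form, was in 1.83% of the windows, and the NBRE AAAGGTCA in 1.43%. Neither was found in the windows of the 4 genes. A match is a description of the letters and not a measured binding site.

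**Figure D1:**
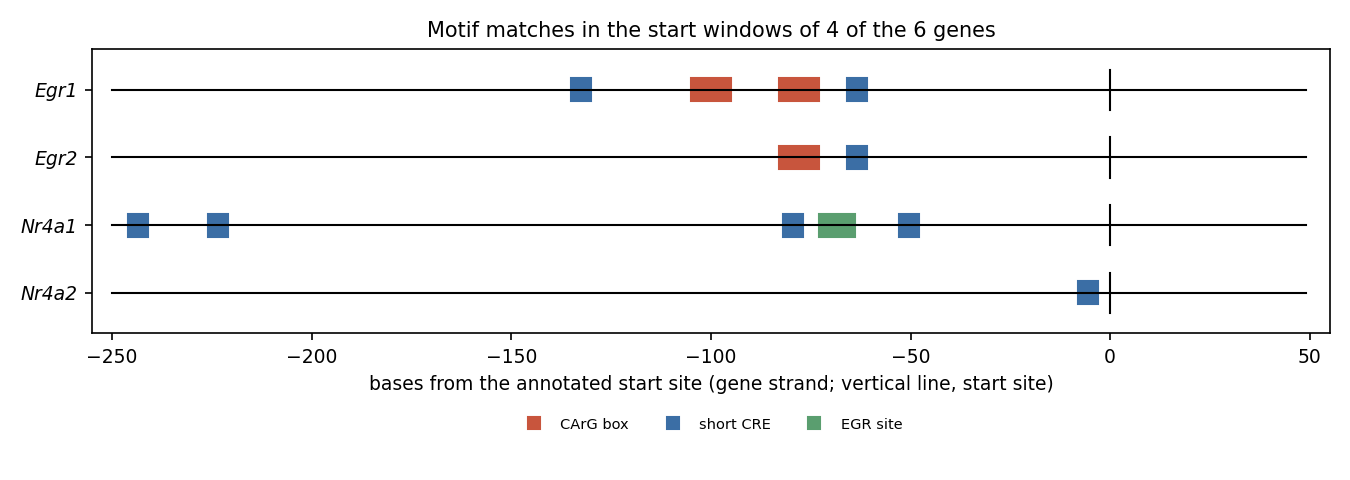
Places of motif matches around the annotated start of 4 genes, in bases from the start on the strand of the gene. Coloured blocks are matches, and the CArG box and short CRE of Egr1 and Egr2 nearest to the start are at the same distances, 83 and 66 bases.

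CPM values below are read counts brought to a common library size by TMM normalization, and genes are compared with each other by FPKM, which also divides by length. The libraries held between 12297992 and 16671533 counts, with TMM factors from 0.962 to 1.04. The labelled tissue was checked by its markers, and all 11 osteoblast and osteocyte genes were detected, with summed levels of 17759.6 to 27846 CPM in the RE/Ovx rats, 15751 to 26215 CPM in the NE/Ovx rats and 6539 to 9215 CPM in the Sham rats. The summed levels of cartilage, adipocyte and B cell genes were also higher, and those of neutrophil and erythroid genes lower, in all ovariectomized rats than in any Sham rat. Sums weigh abundant genes most. The mean centred log2 level, in which genes weigh alike, overlapped for osteoblast and osteocyte genes (NE/Ovx rat 6 -0.40, Sham rats 7 and 8 -0.38 and -0.12). It also overlapped for erythroid genes (RE/Ovx rat 3 0.18, Sham rat 8 0.11). In bulk tissue, fewer cells of a type and less RNA per cell cannot be told apart. The smallest p that an exact permutation of 3 rats against 3 allows is 0.1.

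Per unit of length, Egr1 was the most abundant of the 6 genes, with an FPKM from 12.9 to 42.7 over the 9 rats (median 17.4). Nr4a1 followed with a median FPKM of 3.57, Egr3 with 3.29, Nr4a2 with 1.21, Egr2 with 0.486 and Nr4a3 with 0.411. Egr1 was above Nr4a1, and Egr3 above Nr4a2, in all 9 rats. The remaining neighbours in this order did not separate, since Nr4a1 was above Egr3 in 5 of 9 rats, Nr4a2 above Egr2 in 8 of 9 and Egr2 above Nr4a3 in 6 of 9. The deposited values imply a length of 1.53 kb for Egr1 and of 4.16 to 7.37 kb for the others, so the lead of Egr1 depends on the length that the authors' annotation gave it. Egr4, the remaining EGR gene, had 1 count in NE/Ovx rat 6 and 0 in the other 8 rats.

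All 3 EGR genes had their highest level in the same animal, NE/Ovx rat 9. Egr1, an early growth response factor that osteoblasts induce under load, was at 25.2, 29.9 and 40.2 CPM in RE/Ovx rats 3, 5 and 8, at 32.3, 22.6 and 65.9 CPM in NE/Ovx rats 6, 8 and 9, and at 27.7, 25.95 and 20.2 CPM in Sham rats 7, 8 and 12. NE/Ovx rat 9 was above every other rat, NE/Ovx rat 8 was below every RE/Ovx rat and the groups overlapped. Egr2, which myelinating Schwann cells require and which restrains osteoclast precursors, was at 2.49, 5.35 and 4.18 CPM in RE/Ovx rats 3, 5 and 8, at 3.30, 3.53 and 9.58 CPM in NE/Ovx rats 6, 8 and 9, and at 3.03, 4.11 and 2.75 CPM in Sham rats 7, 8 and 12. Its 3 groups overlapped as well, and RE/Ovx rat 3 held the lowest value of the 9. Egr3, known from muscle spindles and T cells, was at 12.6, 19.2 and 19.0 CPM in RE/Ovx rats 3, 5 and 8, at 11.7, 13.5 and 25.5 CPM in NE/Ovx rats 6, 8 and 9, and at 11.96, 14.3 and 7.41 CPM in Sham rats 7, 8 and 12. RE/Ovx rats 5 and 8 were above all Sham rats for Egr3, and RE/Ovx rat 3 was not.

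Nr4a1 and Nr4a3 had their lowest group mean in the RE/Ovx rats, and Nr4a2 in the Sham rats. Nr4a1, also called Nur77, was at 13.8, 14.8 and 18.3 CPM in RE/Ovx rats 3, 5 and 8, at 29.4, 23.8 and 47.0 CPM in NE/Ovx rats 6, 8 and 9, and at 23.8, 13.4 and 30.4 CPM in Sham rats 7, 8 and 12. All RE/Ovx rats were below all NE/Ovx rats, and Sham rat 8 was lower still. Nr4a2, also called Nurr1, was at 7.13, 6.57 and 5.72 CPM in RE/Ovx rats 3, 5 and 8, at 7.34, 7.75 and 7.33 CPM in NE/Ovx rats 6, 8 and 9, and at 4.61, 3.63 and 7.25 CPM in Sham rats 7, 8 and 12. The NE/Ovx rats were close together here and NE/Ovx rat 9 did not stand out, while Sham rat 12 lay just below them. Nr4a3, also called Nor1, was at 1.95, 1.07 and 1.99 CPM in RE/Ovx rats 3, 5 and 8, at 3.598, 3.67 and 5.39 CPM in NE/Ovx rats 6, 8 and 9, and at 2.75, 2.50 and 1.83 CPM in Sham rats 7, 8 and 12. Every NE/Ovx rat was above every rat of the other groups. These levels rest on few reads, with 14 counts in RE/Ovx rat 5 (exact 95% Poisson interval 0.585 to 1.795 CPM) and 49 counts in NE/Ovx rat 6 (2.66 to 4.76 CPM). Such intervals cover counting error only.

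**Figure D2:**
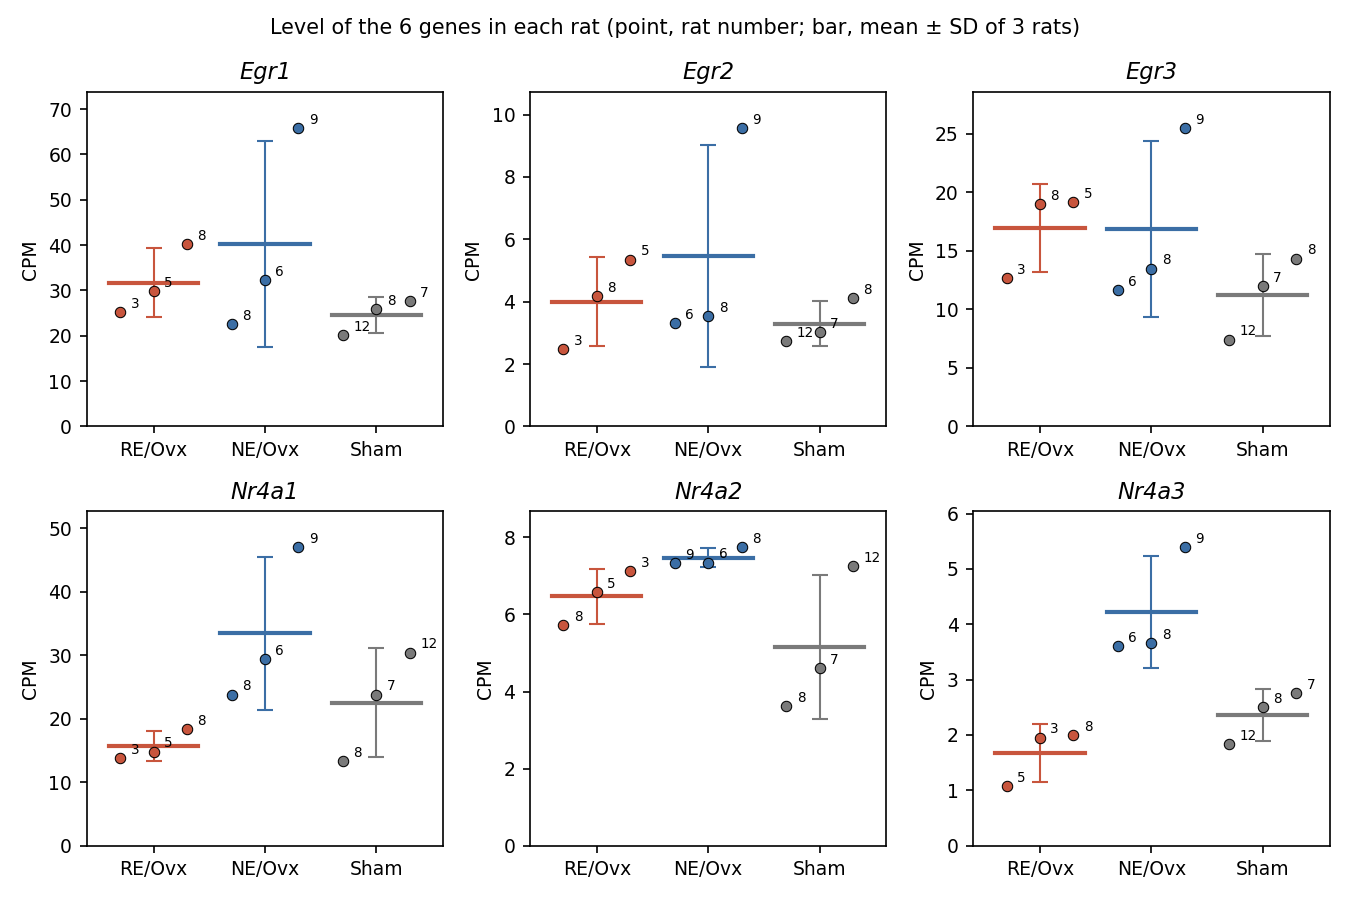
Level of each of the 6 genes in CPM on a linear axis from 0, by group. Points are single rats with their numbers, horizontal bars are group means and whiskers are 1 SD (n = 3). NE/Ovx rat 9 is the highest point in every panel except Nr4a2, with 65.9 CPM for Egr1 and 47.0 CPM for Nr4a1.

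Ovariectomy without exercise went with higher fitted levels of all 6 genes than in the Sham group. The log2 fold change of NE/Ovx against Sham was 0.71 for Egr1 (standard error 0.34), 0.74 for Egr2 (0.44), 0.59 for Egr3 (0.33), 0.57 for Nr4a1 (0.30), 0.54 for Nr4a2 (0.24) and 0.83 for Nr4a3 (0.31). Their median was 0.65, beside a median of 0.0029 over all 14520 tested genes. By edgeR's quasi-likelihood test over all genes, 178 genes had an adjusted p below 0.05 (1.23%), and 0 of the 6 genes were among them. The CPM ranges did not overlap, with NE/Ovx higher, for Nr4a2 and Nr4a3, beside 13.9% of all tested genes. Because these contrasts belong to the values on which the genes were selected, nothing is read from either count. Without NE/Ovx rat 9 the median of the 6 was 0.18. Egr1 was then at 0.14 (standard error 0.23), Egr2 at 0.04 (0.36), Egr3 at 0.14 (0.28) and Nr4a1 at 0.23 (0.28). Nr4a2 stayed at 0.54 (standard error 0.29) and Nr4a3 at 0.60 (0.35). Sham rats mattered for Nr4a2, whose value was 0.84 without Sham rat 12 and 0.33 without Sham rat 8.

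Nr4a1 and Nr4a3 had lower fitted levels in the exercised than in the non-exercised ovariectomized rats. The log2 fold change of RE/Ovx against NE/Ovx was -1.10 for Nr4a1 (standard error 0.31) and -1.33 for Nr4a3 (0.32), which are 0.468 and 0.399 times the NE/Ovx level. Group means were 15.6 ± 2.37 against 33.4 ± 12.1 CPM for Nr4a1 and 1.67 ± 0.521 against 4.22 ± 1.02 CPM for Nr4a3 (SD, n = 3 each). Nr4a2 was at -0.21 (0.24), Egr1 at -0.35 (0.34), Egr2 at -0.46 (0.43) and Egr3 at -0.0006 (0.32). The median of the 6 was -0.40, beside 0.0079 over all tested genes. By edgeR 0 of the 14520 genes were called (0%), with 0.537 as the lowest adjusted p and 767 genes (5.28%) below an unadjusted p of 0.05. DESeq2 called 5 genes and limma 0. The CPM ranges did not overlap, with RE/Ovx lower, for Nr4a1, Nr4a2 and Nr4a3, beside 6.84% of all tested genes, and nothing is read from this count either. Without NE/Ovx rat 9 the signs of the EGR genes turned, to 0.22 for Egr1 (standard error 0.23), 0.24 for Egr2 (0.35) and 0.44 for Egr3 (0.28). Nr4a1 was then at -0.75 (0.28) and Nr4a3 at -1.10 (0.35), and the median of the 6 was 0.0082.

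Between RE/Ovx and Sham rats, which differ in both the operation and the exercise, the fitted log2 fold changes were 0.37 for Egr1 (standard error 0.34), 0.28 for Egr2 (0.45), 0.59 for Egr3 (0.33) and 0.33 for Nr4a2 (0.24), against -0.52 for Nr4a1 (0.31) and -0.49 for Nr4a3 (0.33). The median was 0.30, beside -0.0078 over all tested genes. The CPM ranges of the groups overlapped for all 6 genes, beside 27.8% of tested genes without overlap in either direction. Over all genes edgeR called 1171 (8.06%), 726 higher and 445 lower in RE/Ovx, and 0 of the 6 genes. Scaled to library totals, the calls were 891 higher and 289 lower. The 3 comparisons share groups, so their values are not independent of each other.

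**Figure D3:**
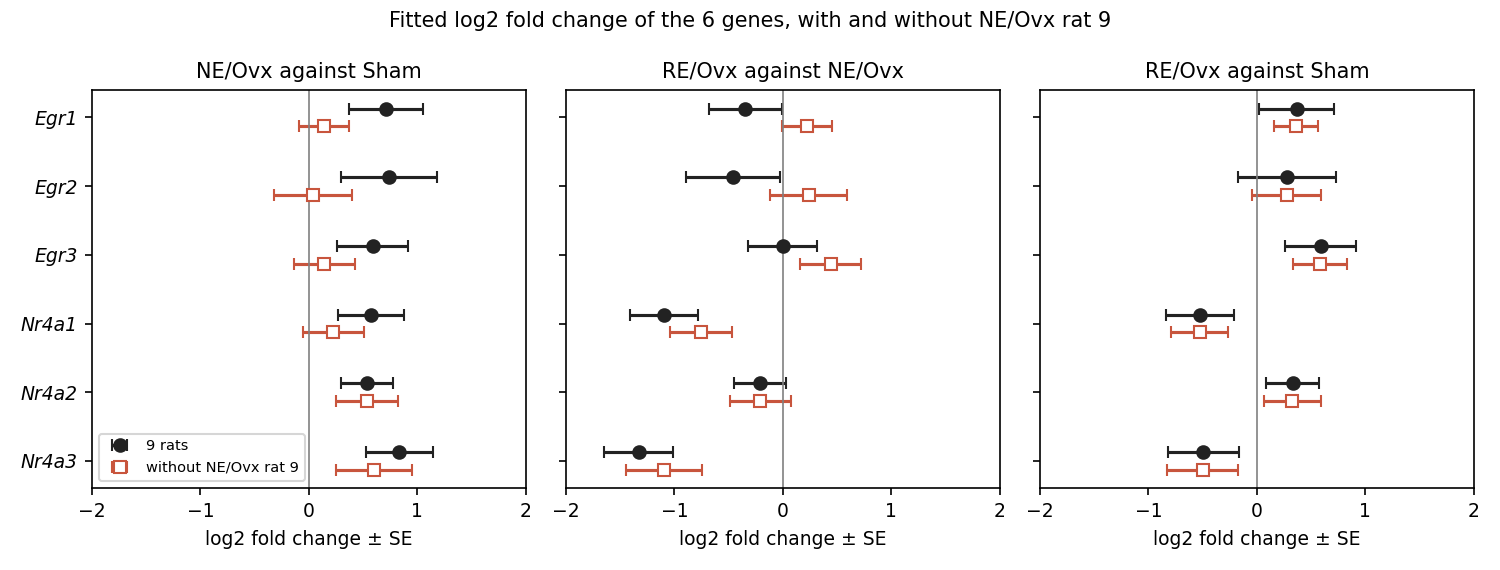
Fitted log2 fold change of the 6 genes in the 3 comparisons, with whiskers of 1 standard error. Filled circles use all 9 rats and open squares leave out NE/Ovx rat 9. For RE/Ovx against NE/Ovx, Egr1 is at -0.35 with that rat and at 0.22 without it, and Nr4a3 at -1.33 and -1.10.

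NE/Ovx rat 9 was also high for FOS and JUN family genes, and less so for other immediate early genes. It was the highest of the 9 rats for 5 of the 6 genes, beside 5.61% of all tested genes, and for 4 of 6 AP-1 genes. Of 43 other immediate early genes it was the highest for 7, while Sham rat 12 was the highest for 13 and RE/Ovx rat 8 for 9. Over all tested genes, Sham rat 12 was the highest for 17.2% and RE/Ovx rat 8 for 12.5%, against the 5.61% of NE/Ovx rat 9. Set against the mean of NE/Ovx rats 6 and 8, NE/Ovx rat 9 had 2.80 times as much Egr2, 2.40 times as much Egr1, 2.03 times as much Egr3, 1.77 times as much Nr4a1 and 1.48 times as much Nr4a3, but 0.97 times as much Nr4a2. Genes of the AP-1 factor, which dimerizes from FOS and JUN proteins, stood out in the same animal. Fosb was at 64.2 CPM there and at 8.22 and 9.20 CPM in NE/Ovx rats 6 and 8, a ratio of 7.37. Fos was at 84.5 CPM, against 31.4 and 28.4 CPM, a ratio of 2.83. Jun had a ratio of 1.59 and Junb of 1.52, while Fosl2 and Jund were below 1.5. Of the lists, 4 of 6 EGR and NR4A genes, 4 of 6 AP-1 genes and 6 of 43 other immediate early genes were above a ratio of 1.5, beside 4.11% of all tested genes. These 6 were Atf3, Per1 and Arc, which were highest in NE/Ovx rat 9, and Hbegf, Cyr61 and Ctgf, which were highest in RE/Ovx rat 8. The median ratio of the 43 was 1.15. Of 21 genes of the ERK, SRF and CREB inputs 0 were above 1.5, and their median ratio was 0.969. Among the ERK feedback inhibitors it was Dusp1 alone, a phosphatase that switches off MAP kinases, with a ratio of 1.63 in 16 genes. This rat was chosen for description after its values were seen.

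Depth, cell type markers and heat shock genes of NE/Ovx rat 9 were compared in the same way. Its library was the deepest, with 16671533 counts. Over 12 lists of cell type markers its summed level was between 0.697 times (B cells) and 1.25 times (erythroid cells) the mean of NE/Ovx rats 6 and 8, and it was the highest of the 9 rats in none of the lists. The 11 heat shock genes, which respond to cell stress, had a median ratio of 1.20, above that of the other immediate early genes. Of them 1 was above a ratio of 1.5, Hsp90aa1 with 4.35, whose highest level was in Sham rat 7, and Hspa8 was highest in NE/Ovx rat 9 with a ratio of 1.41. With group means removed, Dnajb1 had a Pearson's r of 0.91 with the mean of the 6 genes over the 9 rats. This was the highest value of the 11 heat shock genes, and Hspb8 had the lowest, at 0.024. The mean level of the heat shock list had an r of 0.66. With group means kept, r was -0.0039 for Dnajb1 and 0.53 for the list. The part of depth and of heat shock levels in the values of this rat was not tested.

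**Figure D4:**
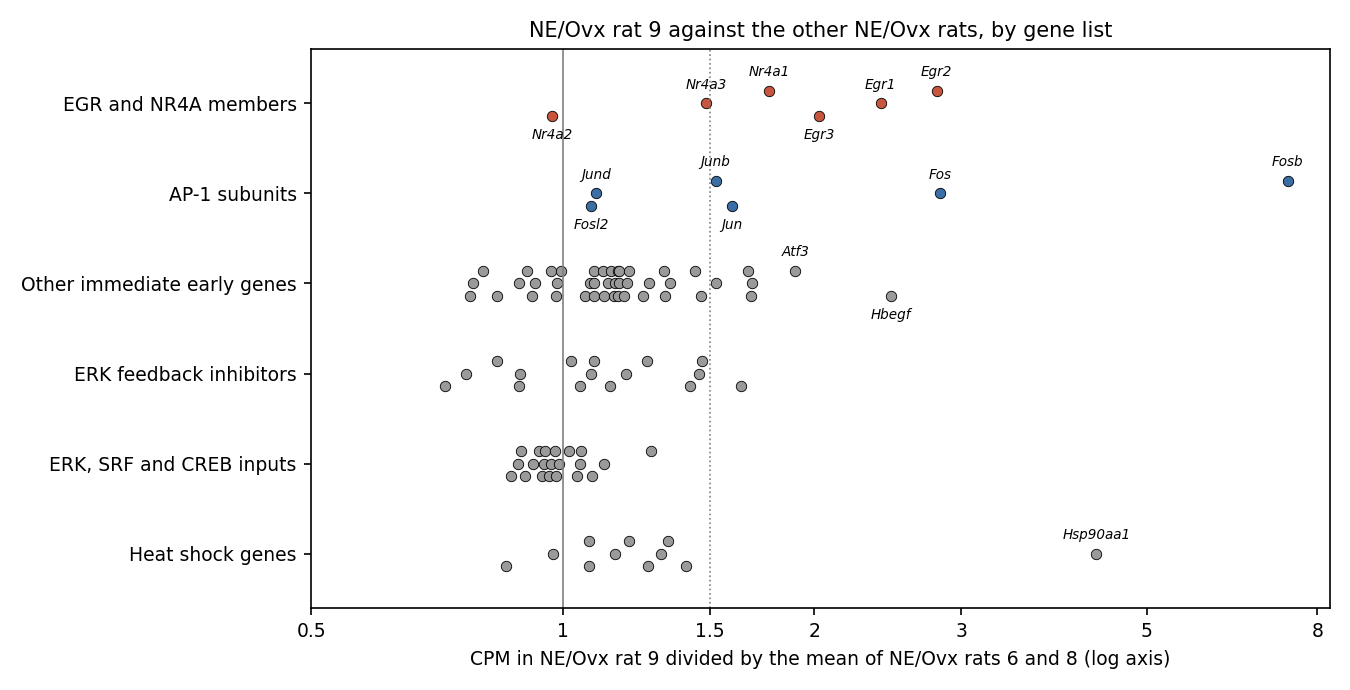
CPM in NE/Ovx rat 9 divided by the mean of NE/Ovx rats 6 and 8, on a log axis, for each tested gene of 6 lists. The solid line marks equal levels and the dotted line a ratio of 1.5. Fosb (7.37), Fos (2.83), Egr2 (2.80) and Egr1 (2.40) lie to the right, and the 21 inputs stay below 1.5.

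Nr4a1 had its low values in the rats with low levels of skeletal muscle genes. The summed level of 10 such genes, among them the fast myosins Myh4, Myh1 and Myh2 and muscle creatine kinase Ckm, was 2337, 3299.8 and 1995 CPM in RE/Ovx rats 3, 5 and 8, 5550.4, 4851 and 5091 CPM in NE/Ovx rats 6, 8 and 9, and 5429.6, 1865 and 5971 CPM in Sham rats 7, 8 and 12. All 10 were detected. The 4 rats with the lowest sums, RE/Ovx rats 3, 5 and 8 and Sham rat 8, were also the 4 rats with the lowest Nr4a1, at 13.4 to 18.3 CPM, while the other 5 were at 23.8 to 47.0 CPM. The levels fall into separate clusters, so no correlation is given. Of the 4 rats lowest in Nr4a3, 3 were among the 4 lowest in muscle genes. The same count was 3 for Nr4a2 and Fos, 2 for Egr1 and Fosb, and 1 for Egr2 and Egr3. With the muscle level as a covariate, a fit chosen after seeing the data, the log2 fold change of RE/Ovx against NE/Ovx was -0.55 for Nr4a1 (standard error 0.37), 0.22 for Nr4a2 (0.28) and -1.59 for Nr4a3 (0.45). All RE/Ovx rats had lower sums than all NE/Ovx rats, so in this comparison exercise and the amount of muscle RNA cannot be told apart.

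**Figure D5:**
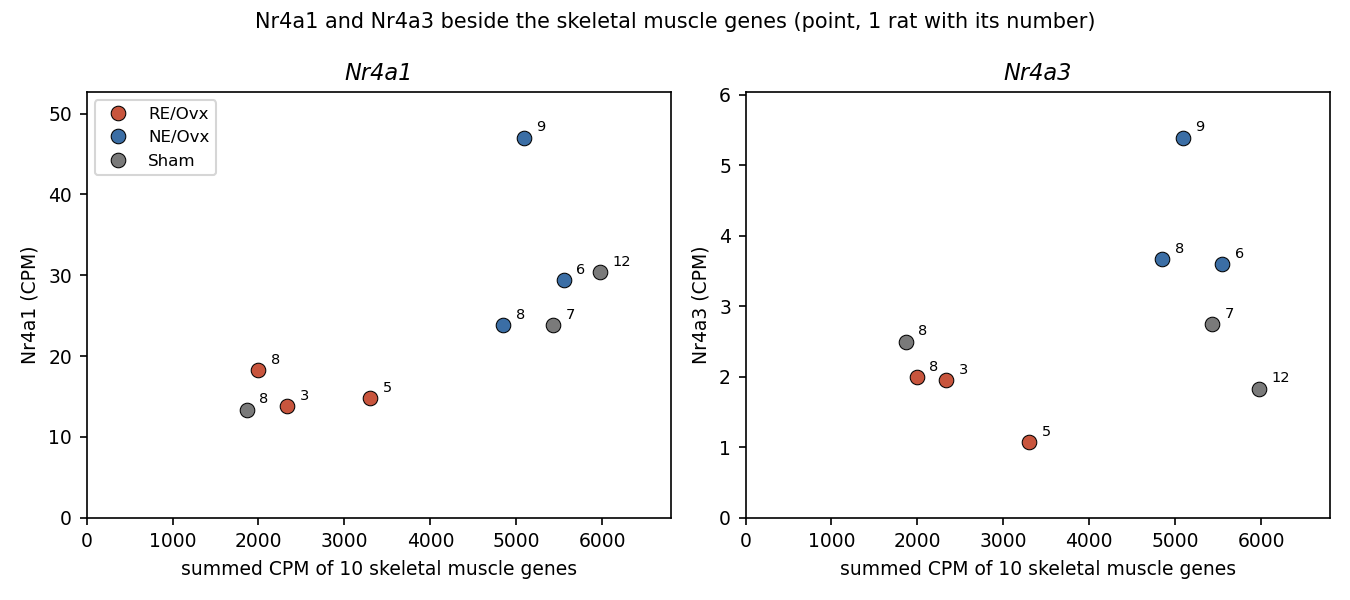
Level of Nr4a1 (left) and Nr4a3 (right) in CPM against the summed CPM of 10 skeletal muscle genes, 1 point per rat with its number. At up to 3299.8 CPM of muscle genes lie the RE/Ovx rats and Sham rat 8, all with Nr4a1 of at most 18.3 CPM, while NE/Ovx rats have Nr4a3 of at least 3.598 CPM.

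Over the 9 rats, Pearson's r was higher among the EGR genes than among the NR4A genes, while the ranges of Spearman's rho overlapped. Pearson's r of log2 CPM was 0.82 to 0.86 for the 3 pairs of EGR genes (Spearman's rho 0.60 to 0.88), and 0.49 to 0.78 over 8 rats without NE/Ovx rat 9. Among NR4A genes it was 0.70 for Nr4a1 with Nr4a3, 0.47 for Nr4a1 with Nr4a2 and 0.14 for Nr4a2 with Nr4a3, with a rho of 0.48, 0.68 and 0.43 in the same order. Without NE/Ovx rat 9, rho was 0.67 for Nr4a1 with Nr4a2, above 0.57 for Egr1 with Egr2 and 0.43 for Egr1 with Egr3. Between the families Pearson's r ran from -0.03 for Egr3 with Nr4a2 to 0.47 for Egr1 with Nr4a1 and with Nr4a3. The highest of these were level with Nr4a1 with Nr4a2 and above Nr4a2 with Nr4a3. Egr3 with Nr4a1 was at 0.03. Without NE/Ovx rat 9 all pairs between the families were negative, from -0.66 for Egr3 with Nr4a1 to -0.09 for Egr1 with Nr4a3. The mean over all 15 pairs was 0.39, and 0.011 without NE/Ovx rat 9. These values describe 9 rats in 3 groups and carry no test.

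The genes most like the mean of the 6 over the rats included other immediate early genes. Among 13088 candidates with an average log2 CPM of at least 1, the highest Pearson's r over 9 rats was that of Mt2A, a metallothionein, at 0.94, followed by Fos at 0.93, Lnx2 at 0.91, Fosb at 0.91, RGD1563365 at 0.86, Tgfa, a ligand of the EGF receptor, at 0.86, LOC102549059 at 0.85, Atf3 at 0.84, Inhbb, a subunit of activin B, at 0.83 and Aktip at 0.82. Mt2A kept 0.94 over the 8 rats without NE/Ovx rat 9, where Fos was at 0.54, Atf3 at 0.53 and Fosb at 0.28. With group means removed, Fosb led at 0.96, and Fos was at 0.95. Among the others in that order were Zbed5 at 0.95, the chemokine Ccl24 at 0.93 and Angpt2, a ligand of the receptor Tie2, at 0.92. For single genes, the closest were Kat7 to Egr1 (0.98), Tgfa to Egr2 (0.96), Zbtb10 to Egr3 (0.96), Phka1, a regulatory subunit of muscle phosphorylase kinase, to Nr4a1 (0.93), Zswim8 to Nr4a2 (0.94) and Numb to Nr4a3 (0.88). The candidates were ranked by these values, which are a description.

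Inputs and partners of the 6 genes were compared by edgeR's test over all genes. An unadjusted p below 0.05 was found for 20.5% of all tested genes when NE/Ovx was set against Sham, for 5.28% when RE/Ovx was set against NE/Ovx and for 25.6% when it was set against Sham, and the unadjusted counts of the lists stand beside these shares. DESeq2 called 8, 1 and 24 genes over all 7 related lists in these comparisons, and edgeR 2, 0 and 10. Of 21 genes of the ERK, SRF and CREB inputs, 0 passed by edgeR for NE/Ovx against Sham (2 at an unadjusted p below 0.05) and 0 for RE/Ovx against NE/Ovx (0 unadjusted). For RE/Ovx against Sham 1 rose, beside 8.06% of all genes called, and 4 were higher and 1 lower at an unadjusted p below 0.05. The 1 input called by edgeR was Mkl2, a coactivator of SRF, with 16.8, 17.1 and 18.6 CPM in RE/Ovx rats 3, 5 and 8, against 11.9, 13.5 and 12.9 CPM in Sham rats 7, 8 and 12 (log2 fold change 0.46, edgeR adjusted p = 0.0447). Its call was lost in 13 of the 18 alternatives, 8 of them fits without 1 rat (every rat except RE/Ovx rat 3), with an edgeR adjusted p of up to 0.161. In NE/Ovx rats 6, 8 and 9 Mkl2 was at 14.2, 16.6 and 16.2 CPM, all above the Sham rats. Its log2 fold change for NE/Ovx against Sham was 0.30 (edgeR adjusted p = 0.199), and for RE/Ovx against NE/Ovx 0.16 (edgeR adjusted p = 0.968). Srf itself was at 53.2 to 62.2 CPM in RE/Ovx rats, 53.9 to 57.9 CPM in NE/Ovx rats and 55.99 to 59.96 CPM in Sham rats. Of 5 tested relatives and partners, 0 passed by edgeR in any comparison, and 2, 1 and 1 had an unadjusted p below 0.05 in the 3 comparisons in the same order. Nab2, an EGR corepressor that EGR proteins induce, was at 10.9, 19.0 and 18.8 CPM in RE/Ovx rats 3, 5 and 8 and at 9.35, 11.4 and 9.75 CPM in Sham rats 7, 8 and 12 (log2 fold change 0.68, edgeR adjusted p = 0.0952, DESeq2 adjusted p = 0.0473). Rxrb, which encodes a retinoid X receptor, had a log2 fold change of -0.24 for RE/Ovx against NE/Ovx (edgeR adjusted p = 0.924).

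Feedback inhibitors of ERK and related kinases are themselves early response genes. Of 16 tested, 1 rose for NE/Ovx against Sham (1.23% of all genes were called), 2 rose for RE/Ovx against Sham (8.06% of all genes) and 0 passed for RE/Ovx against NE/Ovx (1 at an unadjusted p below 0.05, beside 5.28% of all genes). Dusp10, a phosphatase for the kinases JNK and p38, was at 23.9, 27.1 and 25.7 CPM in RE/Ovx rats 3, 5 and 8, at 34.7, 21.9 and 21.7 CPM in NE/Ovx rats 6, 8 and 9, and at 13.1, 12.98 and 11.1 CPM in Sham rats 7, 8 and 12. All ovariectomized rats were above all Sham rats. Against Sham, the log2 fold change of RE/Ovx was 1.04 (edgeR adjusted p = 0.0148) and that of NE/Ovx 1.07 (edgeR adjusted p = 0.0308). The call in NE/Ovx was lost when any 1 Sham rat, NE/Ovx rat 8, NE/Ovx rat 9 or RE/Ovx rat 8 was left out, with an edgeR adjusted p of up to 0.0934. The call in RE/Ovx was lost without RE/Ovx rat 5 (edgeR adjusted p = 0.06004) or rat 8 (edgeR adjusted p = 0.0582). Dusp4, a nuclear phosphatase of ERK, was at 5.11, 8.25 and 7.45 CPM in RE/Ovx rats 3, 5 and 8 and at 1.79, 3.63 and 1.92 CPM in Sham rats 7, 8 and 12 (log2 fold change 1.51, edgeR adjusted p = 0.0236). Leaving out Sham rat 7, Sham rat 12, RE/Ovx rat 5 or RE/Ovx rat 8 ended its call (edgeR adjusted p up to 0.09704). In NE/Ovx rats 6, 8 and 9 Dusp4 was at 3.67, 4.77 and 5.33 CPM, all above the Sham rats. Its log2 fold change for NE/Ovx against Sham was 0.92 (edgeR adjusted p = 0.154), and for RE/Ovx against NE/Ovx 0.59 (edgeR adjusted p = 0.948). Dusp1 had a log2 fold change of -0.62 for RE/Ovx against NE/Ovx (edgeR adjusted p = 0.921), with levels of 107 to 116 CPM in RE/Ovx rats and 119 to 228 CPM in NE/Ovx rats.

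Of 6 tested AP-1 subunits, 0 passed by edgeR in any comparison, and 2, 2 and 1 had an unadjusted p below 0.05 for NE/Ovx against Sham (20.5% of all genes), RE/Ovx against NE/Ovx (5.28%) and RE/Ovx against Sham (25.6%). Fos had a log2 fold change of 1.02 for NE/Ovx against Sham (standard error 0.39, edgeR adjusted p = 0.178) and of -0.98 for RE/Ovx against NE/Ovx (0.39, edgeR adjusted p = 0.924), and Fosb one of 1.79 (0.69, edgeR adjusted p = 0.184) and -1.56 (0.68, edgeR adjusted p = 0.924). Without NE/Ovx rat 9 the values were 0.32 and -0.28 for Fos and 0.13 and 0.10 for Fosb. The median of the 6 tested subunits was 0.29 for NE/Ovx against Sham and -0.30 for RE/Ovx against NE/Ovx. In the RE/Ovx rats Fosl2 was at 25.8 to 30.5 CPM, against 34.4 to 46.4 CPM in the Sham rats (log2 fold change -0.44, edgeR adjusted p = 0.0778, DESeq2 adjusted p = 0.0378).

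Of 43 other immediate early genes, 0 passed by edgeR for NE/Ovx against Sham (11 at an unadjusted p below 0.05, beside 20.5% of all genes) or for RE/Ovx against NE/Ovx (9 unadjusted, beside 5.28%), while 1 rose and 4 fell for RE/Ovx against Sham, where 8.06% of all genes were called. Nfil3, a transcription factor of the circadian clock and of lymphocytes, was at 19.0, 17.3 and 17.7 CPM in RE/Ovx rats 3, 5 and 8, at 27.5, 28.5 and 27.5 CPM in NE/Ovx rats 6, 8 and 9, and at 29.1, 25.4 and 27.8 CPM in Sham rats 7, 8 and 12. It was lower in every RE/Ovx rat than in any other rat. Its log2 fold change in RE/Ovx was -0.61 against Sham (edgeR adjusted p = 0.0128) and -0.63 against NE/Ovx (edgeR adjusted p = 0.537, DESeq2 adjusted p = 0.00278). Gadd45a, a stress gene of growth arrest, fell by 0.56 on the log2 scale (edgeR adjusted p = 0.0204), Cebpb, a bZIP factor of fat and myeloid cells, by 0.59 (edgeR adjusted p = 0.034) and its relative Cebpd by 0.59 (edgeR adjusted p = 0.0381), the last named after its value was seen. Zfp36l1, which speeds the decay of AU-rich mRNAs, rose by 0.67 (edgeR adjusted p = 0.0324). For NE/Ovx against Sham, Gadd45a was at -0.53 (edgeR adjusted p = 0.0539, DESeq2 adjusted p = 0.00234) and Zfp36l1 at 0.54 (edgeR adjusted p = 0.107). Cebpb and Cebpd were at -0.08 and -0.16 there. Between RE/Ovx and NE/Ovx, Gadd45a was at -0.03, Zfp36l1 at 0.13, Cebpb at -0.51 and Cebpd at -0.43. Without RE/Ovx rat 5 or without RE/Ovx rat 8, only 1 of the 10 related genes called for RE/Ovx against Sham passed, which was Bglap. Over all 18 alternatives the call of Cebpb was lost in 8, that of Zfp36l1 in 6 and that of Gadd45a in 3, with an edgeR adjusted p of up to 0.129 for Cebpb, 0.1204 for Zfp36l1 and 0.0818 for Gadd45a. Besides those of RE/Ovx rats 5 and 8, the single rats whose removal ended a call were Sham rats 7 and 12, NE/Ovx rat 8 and RE/Ovx rat 3 for Cebpb, and Sham rats 8 and 12 for Zfp36l1. The 8 neutrophil genes had summed levels of 3738 to 5857 CPM in RE/Ovx rats, 5043 to 5908 CPM in NE/Ovx rats and 6879 to 11818 CPM in Sham rats, and their part in these differences was not tested.

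Of 10 genes reported as EGR or NR4A targets in other systems, Bglap alone passed, for RE/Ovx and for NE/Ovx against Sham. Over all genes 8.06% and 1.23% were called, in the same order. At an unadjusted p below 0.05 by edgeR, 3 were higher and 1 lower for RE/Ovx against Sham (25.6% of all genes). For NE/Ovx against Sham 3 were higher and 0 lower (20.5%), and for RE/Ovx against NE/Ovx it was 0 (5.28%). Bglap, which encodes osteocalcin, was at 243, 373 and 331 CPM in RE/Ovx rats 3, 5 and 8, at 169, 328 and 340 CPM in NE/Ovx rats 6, 8 and 9, and at 100.2, 95.5 and 58.8 CPM in Sham rats 7, 8 and 12. Against Sham, the log2 fold change of RE/Ovx was 1.89 (edgeR adjusted p = 0.0113) and that of NE/Ovx 1.72 (edgeR adjusted p = 0.0281). Leaving out Sham rat 7, Sham rat 12, NE/Ovx rat 8, NE/Ovx rat 9 or RE/Ovx rat 8 ended the call in NE/Ovx (edgeR adjusted p up to 0.108). Bglap is also on the osteoblast list, whose sums were higher in all ovariectomized rats than in the Sham rats. The mean log2 levels of that list were higher in all RE/Ovx rats (0.16 to 0.38) than in the Sham rats (-0.70 to -0.12), while NE/Ovx rat 6 (-0.40) overlapped. The part of these differences in the calls of Bglap was not tested. Between RE/Ovx and NE/Ovx rats the 10 genes had a median log2 fold change of 0.15, with Thbs1, which encodes thrombospondin, at 0.30 (edgeR adjusted p = 0.968) and the hyaluronan receptor Cd44 at -0.12 (edgeR adjusted p = 0.975). Of 11 heat shock genes, 1 was called for RE/Ovx against Sham, beside 8.06% of all genes. At an unadjusted p below 0.05 by edgeR, 2 fell for RE/Ovx against Sham, 3 for NE/Ovx against Sham and 1 for RE/Ovx against NE/Ovx, and 0 rose. The called gene, Hsph1, fell by 0.51 (edgeR adjusted p = 0.0259). Its call ended without Sham rat 8, Sham rat 12, RE/Ovx rat 5 or RE/Ovx rat 8 (edgeR adjusted p up to 0.106). Hsph1 was at -0.36 for NE/Ovx against Sham (edgeR adjusted p = 0.121) and at -0.15 for RE/Ovx against NE/Ovx (edgeR adjusted p = 0.968).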

How the data were processed

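RNA-seq libraries of 9 left tibias, 3 per group by GEO's labels, were analysed. For each rat and gene the authors deposited a count in whole numbers and the FPKM value. The notes of the submitters on processing list, without versions or roles, HISAT2, StringTie, Bowtie2, DESeq and Trimmomatic, and the build Rnor_6.0. FPKM and count differ by 1 factor per library and gene length (largest relative spread over genes 1.08e-07). No source used here says whether strand was used in counting, so overlapping antisense reads cannot be told apart. Replicates are separate rats, and p-values measure the spread between them. The tests were made with edgeR 4.0.16 under R 4.3.3, by a quasi-likelihood fit to the 9 libraries together with group as the only term, after its filter on low counts and TMM scaling. P-values were adjusted by Benjamini-Hochberg over the 14520 tested genes. The standard error was worked back from the test, as the absolute log2 fold change divided by the square root of its F statistic. Log2 CPM used a prior count of 2. The test was also run on simulated counts with known changes in the NE/Ovx group. No single rat was made to stand out in them, and no result given here rests on that run.

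The 6 genes and the lists of inputs, partners, other immediate early genes, reported targets, heat shock genes and cell type markers were chosen with earlier results of these data known. Named were the 6 genes, up to 4 called genes of a list and comparison with the smallest p (or 2 where none was called), and the genes with the highest Pearson's r. Alternatives were median-of-ratios size factors, library totals, no filter, at least 10 counts in every library, DESeq2 1.42.0, edgeR on the groups compared, limma 3.58.1 on log2(FPKM + 1) and log2(FPKM + 0.1), and leaving out each rat. A covariate fit, with the level of skeletal muscle genes, was added after seeing the data. Promoter windows and motifs used RefSeq windows of GRCr8, whose coordinates were not mixed with Rnor_6.0, and 4 of the 6 genes had a window. Of the genes on the lists, Egr4, Wt1, Dusp9, Spry3, Fosl1 and Dcstamp had too few counts to be tested, and 3 more symbols (Hspa1b, Ocstamp and Hba-a2) found no match. Figures were drawn with Python 3.11.15 and matplotlib 3.10.9.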

Additional observations from a re-analysis of the deposited data

How the results depend on the processing

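Of 501 values of the comparisons recomputed under the alternatives, 446 moved by less than a set limit. It was the pooled SD between rats within groups for log2 fold changes, and the SD over the 15 pairs for the mean pairwise r. For counts it was a factor of 1.5. NE/Ovx rat 9 is part of the pooled SD (0.48 for Egr3). Egr3 thus counted as unmoved without this rat, at 0.14 instead of 0.59 for NE/Ovx against Sham. Of 700 values of named related genes 635 kept their side of the threshold, 57 lost the call and 8 gained it. Only genes called in the main fit could lose a call, and most of the 700 values were of genes not called there. For RE/Ovx against Sham, Mkl2 lost its call in 13 of 18 alternatives and Cebpb in 8. DESeq2 called 1014 genes (8 related ones) for NE/Ovx against Sham, 5 genes (1 related) for RE/Ovx against NE/Ovx and 1964 genes (24 related) for RE/Ovx against Sham. With edgeR on the compared groups alone, 559 genes were called for RE/Ovx against Sham and 1 for RE/Ovx against NE/Ovx, with 6 related genes for RE/Ovx against Sham and 1 for NE/Ovx against Sham. On log2(FPKM + 1), which understates changes of low genes, limma called 112 genes for NE/Ovx against Sham, and the median of the 6 genes was 0.38 there and -0.17 for RE/Ovx against NE/Ovx. Nr4a3 was then at 0.30, -0.40 in the same comparisons and at -0.11 between RE/Ovx and Sham. With the muscle covariate, 551 genes and 3 related genes were called for RE/Ovx against Sham, where Nr4a2 was at 0.64, while for RE/Ovx against NE/Ovx Nr4a1 was at -0.55 and Nr4a2 at 0.22. The cause of these shifts was not tested.

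Leaving out 1 rat at a time gave 9 (without NE/Ovx rat 8) to 458 (without RE/Ovx rat 3) called genes for NE/Ovx against Sham, 0 to 1 for RE/Ovx against NE/Ovx and 103 (without RE/Ovx rat 5) to 1749 (without RE/Ovx rat 3) for RE/Ovx against Sham, with 0 to 5, 0 to 0 and 1 to 18 related genes. The median of the 6 genes ran over 0.18 to 0.85 for NE/Ovx against Sham and -0.66 to 0.0082 for RE/Ovx against NE/Ovx. For NE/Ovx against Sham, Egr1 ran over 0.14 to 0.998, Egr2 over 0.036 to 0.996 and Nr4a2 over 0.33 to 0.84. For RE/Ovx against NE/Ovx, Egr1 ran over -0.63 to 0.22 and Egr2 over -0.72 to 0.24, and for RE/Ovx against Sham Nr4a2 over 0.14 to 0.64. The mean pairwise r ran over 0.011 to 0.48. The groups hold separate rats, so the comparisons are unpaired, and a rat number that recurs in another group belongs to a different rat. Depth limits Nr4a3 and Egr2 most.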
